A study of Arabidopsis thaliana with 6 samples.

Results

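The genes described here encode NRPE1, which is the catalytic and largest subunit of the plant polymerase Pol V, and 7 proteins that bring Pol V to chromatin or work on its transcripts. They are NRPE1 (AT2G40030), SPT5L (AT5G04290), DRD1 (AT2G16390), DMS3 (AT3G49250), RDM1 (AT3G22680), SUVH2 (AT2G33290), SUVH9 (AT4G13460) and IDN2 (AT3G48670). They were taken by locus name, and all 8 had a value among the 29670 loci of the deposited tables. The set was chosen by locus with the log2 difference of NRPE1 between the genotypes already known, so that contrast counts as used, and the values of the 8 genes are given as a description; counts of them past a threshold are printed beside the share of all loci and are not read as tests.

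RNA levels were measured on 6 Affymetrix arrays, 3 for the Arabidopsis thaliana reference accession Col and 3 for epiRIL12, in a study of DNA methylation and recombination. Epigenetic recombinant inbred lines (epiRILs) are bred by crossing wild-type Col to a plant with lost DNA methylation, here a mutant of the CG methyltransferase gene MET1, and selfing the offspring, so that each line holds chromosome segments of both parents. All plants were 14 days old and untreated, with 16 hours of light a day; the labels name no allele or agent for either group. epiRIL12 is a single line, so a difference from Col belongs to this line.

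In plants, RNA-directed DNA methylation uses a pair of polymerases that derive from Pol II. Pol IV starts the small interfering RNAs, and Pol V makes a scaffold transcript at the target locus, to which ARGONAUTE proteins are guided by those small RNAs before the methyltransferase DRM2 acts. Pol V is brought to DNA that is already methylated by SUVH2 and SUVH9, which bind methylated cytosines, and by the DDR complex, named after DRD1, DMS3 and RDM1.

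The array medians were 6.80 to 6.84 on the log2 scale. The labels call the material whole seedlings in one field and rosette leaves in another. Mean log2 levels of 4 leaf markers were 14.9 to 15.0 on the 6 arrays, and those of 4 root markers 6.08 to 6.40, with the root beta-glucosidase gene PYK10 at 8.77 in both genotypes (SD 0.35 over 3 Col arrays and 0.07 over 3 epiRIL12 arrays). The root hair genes COBL9, EXPA7 and RHD6 had group means of 4.28 to 6.13, below the array medians. In this bulk material, fewer cells of a type and less RNA per cell cannot be told apart. The labels do not say whether the 3 samples of a group came from separate cultures, so p-values measure only the spread between these samples, which may be technical.

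NRPE1 had less RNA in epiRIL12 than in Col on every array. Its log2 level was 7.27, 7.55 and 7.04 on Col replicates 1, 2 and 3 and 6.60, 6.41 and 6.26 on epiRIL12 replicates 1, 2 and 3. The ranges of the 2 groups were 0.45 apart on the log2 scale, which is more than the SD within Col (0.25) or within epiRIL12 (0.17). The Col arrays had NRPE1 above the array median and the epiRIL12 arrays had it below. The difference of means, epiRIL12 minus Col, was -0.86 (SE 0.16), a level 1.82-fold lower, and the authors' deposited table gives -0.90. Of the 25178 protein-coding loci, 68 (0.270%) had a difference as low or lower, and 125 had one as large in either direction. Because the set was chosen with this difference known, the gap and these ranks are a description and not a test.

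**Figure D1:**
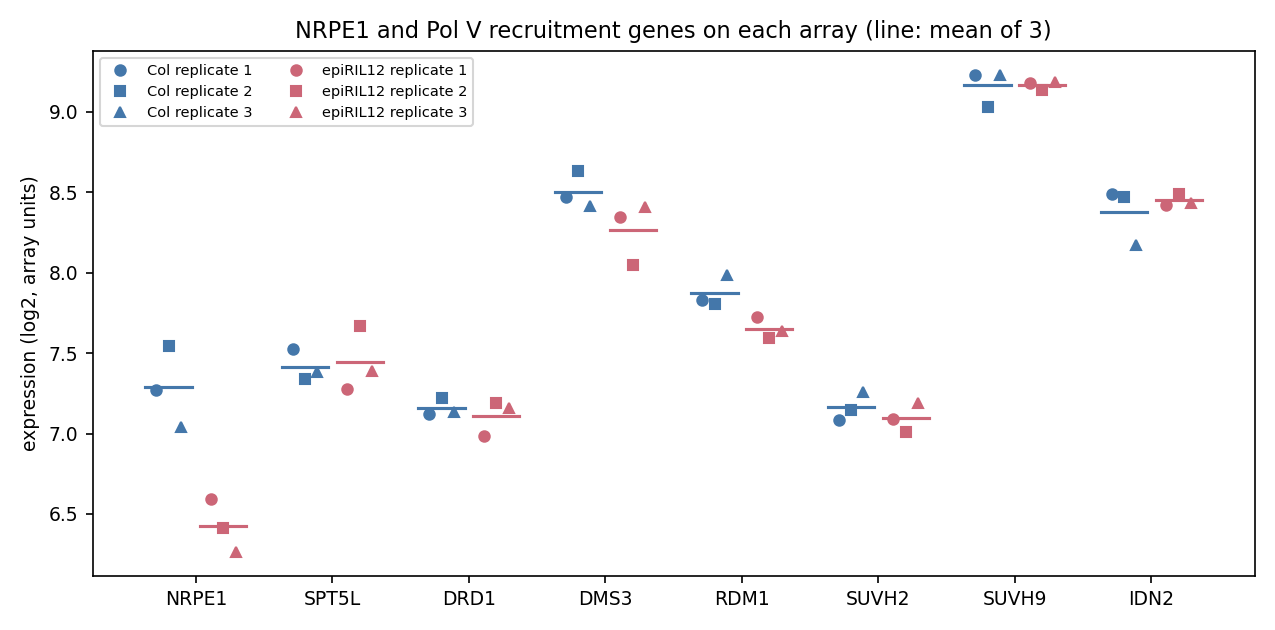
Log2 expression of the 8 genes on each of the 6 arrays, with replicates 1, 2 and 3 as circles, squares and triangles and the group mean as a line. NRPE1 stands apart by genotype, at 7.04 to 7.55 in Col and 6.26 to 6.60 in epiRIL12, while the groups of SPT5L, DRD1, SUVH2, SUVH9 and IDN2 overlap. Heights of different genes are not comparable, since each has its own probes.

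None of the 8 genes passed the test over all loci (limma, Benjamini-Hochberg adjusted p under 0.05), which 0.974% of all loci did (0.89% higher and 0.0843% lower in epiRIL12). At an unadjusted p under 0.05 the count was 1 of the 8, the gene around which the set was chosen, and the share of all loci was 7.04% (3.72% lower). The groups did not overlap for 3 of the 8 genes, NRPE1, DMS3 and RDM1, all lower in epiRIL12; 6.89% of all loci were lower without overlap and 5.19% higher. Since NRPE1 was known to be low when the set was made, these counts say nothing about the set as a whole. The median log2 difference was -0.06 over the 8 genes and -0.05 over the 7 without NRPE1, beside -0.02 over all loci.

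Of the genes of the DDR complex, DMS3 and RDM1 had lower means in epiRIL12 with 95% intervals that include 0, and the groups of DRD1 overlapped. Like the other values of the 8 genes, these unadjusted intervals are a description and not a test. DMS3 encodes a protein with a hinge domain like that of SMC chromosome proteins. Its log2 level was 8.47, 8.63 and 8.41 in Col and 8.35, 8.05 and 8.41 in epiRIL12. The highest epiRIL12 array lay only 0.0046 below the lowest Col array, and the difference of means was -0.24 (SE 0.13; 95% interval -0.54 to 0.07). Without epiRIL12 replicate 2 the difference of DMS3 was -0.13. RDM1, a small protein that binds methylated DNA and joins the complex together, stood at 7.83, 7.81 and 7.98 in Col and 7.73, 7.59 and 7.64 in epiRIL12. All 3 epiRIL12 values were below all 3 Col values by at least 0.08, with a difference of -0.22 (SE 0.09; 95% interval -0.45 to 0.0038). DRD1, the SNF2-type chromatin remodeller of the complex, stood at 7.12, 7.22 and 7.14 in Col and 6.98, 7.19 and 7.16 in epiRIL12. Here epiRIL12 replicate 1 was the lowest of the 6 arrays and the other two epiRIL12 arrays lay within the Col range, with a difference of -0.05 (SE 0.10).

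The genes for the methyl-binding proteins SUVH2 and SUVH9 had like levels in both genotypes. Both proteins carry a SET domain, the fold of histone methyltransferases, but are known for recruiting Pol V and not for enzyme activity. SUVH2 stood at 7.09, 7.15 and 7.26 in Col and 7.09, 7.01 and 7.19 in epiRIL12, with a difference of -0.07 (SE 0.10). SUVH9 stood at 9.23, 9.03 and 9.23 in Col and 9.18, 9.14 and 9.18 in epiRIL12, and all 3 epiRIL12 values lay inside the Col range. Its difference was 0.0023 (SE 0.09), with a 95% interval of -0.22 to 0.23, and the interval for SUVH2 was -0.30 to 0.16.

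The genes for proteins that act on Pol V transcripts, SPT5L and IDN2, also overlapped between genotypes. SPT5L resembles the elongation factor SPT5 and binds ARGONAUTE4; its log2 level was 7.53, 7.34 and 7.38 in Col and 7.28, 7.67 and 7.39 in epiRIL12. Both the lowest and the highest value came from epiRIL12, and the difference was 0.03 (SE 0.13; 95% interval -0.28 to 0.33). IDN2 is a coiled-coil protein that binds double-stranded RNA. It stood at 8.49, 8.47 and 8.17 in Col and 8.42, 8.49 and 8.44 in epiRIL12. Col replicate 3 was the low value, the other 5 arrays lay within 8.42 to 8.49, and the difference was 0.07 (SE 0.11; 95% interval -0.20 to 0.34).

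No epiRIL12 array had all of these genes low at once. On epiRIL12 replicates 1, 2 and 3, 6, 5 and 4 of the 8 genes lay below their own Col mean, and on Col replicates 1, 2 and 3 it was 5, 4 and 5. The mean deviation of the 7 genes without NRPE1 from their Col means was -0.09, -0.07 and -0.04 on epiRIL12 replicates 1, 2 and 3. NRPE1 deviated by -0.69, -0.87 and -1.02 on the same arrays.

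Other genes of the pathway were set beside these in 6 lists, with 58 measured genes in all; 10 entries stand on more than 1 list. None of the 58 passed the test over all loci (limma adjusted p under 0.05), against the 0.974% of all loci given above. At an unadjusted p under 0.05 there were 4, against 7.04% of loci (3.72% lower). They were NRPB6B, MORC2, FDM3 and ROS1, each with a value below 0. The groups did not overlap for 7 of the 58 genes, 5 lower and 2 higher, against 12.1% of all loci (6.89% lower and 5.19% higher). Their median difference was -0.02, the same as over all loci to that precision.

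**Figure D2:**
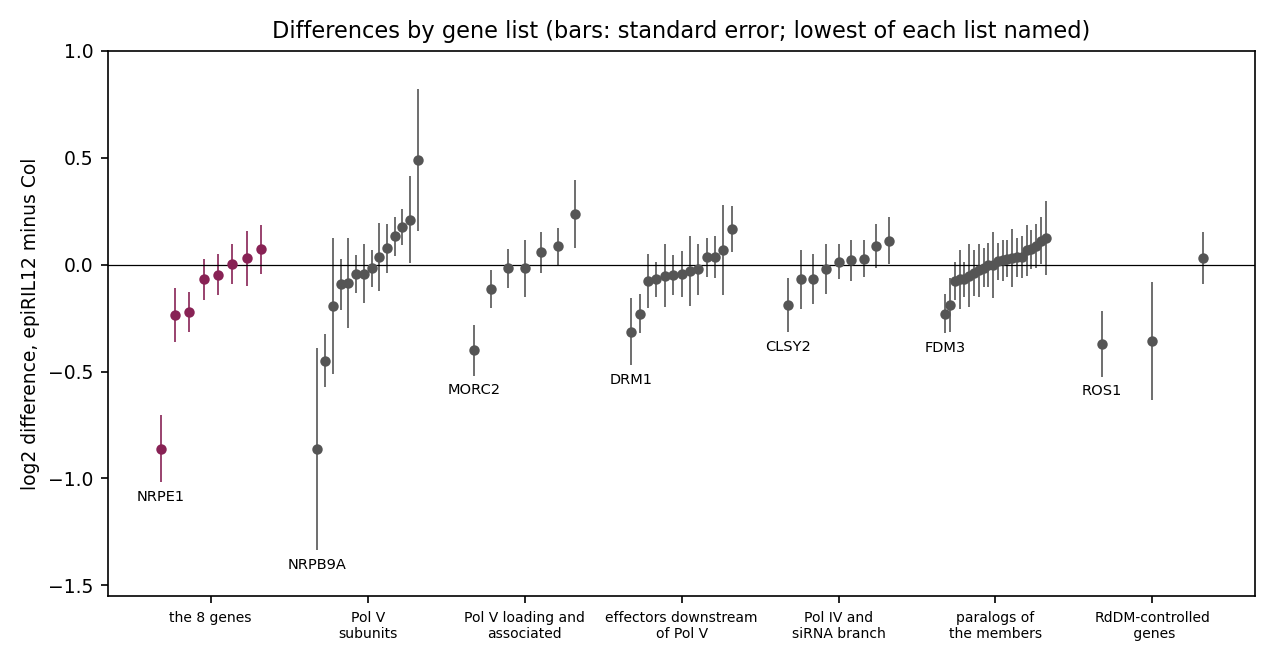
Log2 difference, epiRIL12 minus Col, of each of the 8 genes and of the measured genes on the 6 lists, with the standard error as bars and the lowest gene of each list named. NRPE1 (-0.86) and NRPB9A (-0.86) are the lowest points, and the bar of NRPB9A (SE 0.47) is much longer than that of NRPE1 (SE 0.16).

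The polymerases related to Pol V give the closest comparison for NRPE1. NRPD1, the largest subunit of Pol IV, stood at 6.96, 6.88 and 6.93 in Col and 6.98, 7.01 and 6.88 in epiRIL12, with overlapping groups and a difference of 0.03 (SE 0.09, limma adjusted p = 0.988). NRPB1, the largest subunit of Pol II, had a difference of -0.04 (SE 0.11, limma adjusted p = 0.986). NRPD2, the second-largest subunit that Pol IV and Pol V share, had -0.02 (SE 0.09, limma adjusted p = 0.995). Whether NRPE1 differed from these genes was not tested, because it was picked for its difference.

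Of 16 listed genes for the smaller or shared subunits of Pol V, 14 were measured: 8 had values below 0 and 6 above, with a median of -0.03. NRPB9A, one of a pair of genes for the ninth subunit that Pol II and Pol V share, stood at 6.88, 6.76 and 6.60 in Col and 5.31, 7.07 and 5.28 in epiRIL12. On 2 epiRIL12 arrays it was low and on replicate 2 it was the highest of all 6, so the groups overlap and the difference was -0.86 (SE 0.47, limma adjusted p = 0.844). Without epiRIL12 replicate 2 it was -1.46 (SE 0.12) and passed the test (limma adjusted p = 0.00772, from a range of 0.00772 to 0.981 over 15 alternatives), with the 2 remaining arrays of that group; it was -0.57 without epiRIL12 replicate 1 and -0.56 without replicate 3. Its partner gene NRPB9B had -0.19 (SE 0.32). NRPB6B, for a subunit shared by several polymerases, stood at 7.94, 7.98 and 8.18 in Col and 7.75, 7.41 and 7.59 in epiRIL12, lower without overlap, with -0.45 (SE 0.12, limma adjusted p = 0.382), whereas the authors' deposited table gives -0.18. Its partner NRPB6A had 0.13 (SE 0.09), and the highest value in this list was that of NRPB10, 0.49 (SE 0.33, limma adjusted p = 0.898), for which the authors' deposited table gives 0.23.

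Among 7 further factors of the pathway, most of them linked to Pol V or its loading, 4 had values below 0 and 3 above, with a median of -0.02. MORC2, an ATPase gene of the microrchidia family, stood at 7.47, 7.68 and 7.83 in Col and 7.26, 7.33 and 7.19 in epiRIL12, so all epiRIL12 arrays were the lower ones, with -0.40 (SE 0.12, limma adjusted p = 0.433), beside -0.61 in the authors' deposited table. Its relatives MORC1 and MORC6 had -0.12 (SE 0.09) and 0.06 (SE 0.10). RDM4, which assists the assembly of polymerases, had the highest value, 0.24 (SE 0.16, limma adjusted p = 0.894).

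Of 13 genes that act downstream of Pol V, 9 had values below 0 and 4 above, with a median of -0.05. The extremes were the methyltransferase gene DRM1 (-0.31, SE 0.16, limma adjusted p = 0.808) and AGO4, the main ARGONAUTE of the pathway (0.17, SE 0.11, limma adjusted p = 0.889). DRM2, the principal methyltransferase, had -0.03 (SE 0.16). The IDN2 paralogs FDM1 to FDM5 had differences of -0.23 to 0.04, and FDM3 was the lowest, at 7.33, 7.41 and 7.28 in Col and 7.03, 7.10 and 7.21 in epiRIL12 (-0.23, SE 0.09, limma adjusted p = 0.702). FDM3 and FDM5 (-0.07, SE 0.08) were lower in epiRIL12 without overlap.

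The 9 genes of the Pol IV branch lay closest together, from -0.19 for the remodeller gene CLSY2 (SE 0.13, limma adjusted p = 0.898) to 0.11 for CLSY3 (SE 0.11, limma adjusted p = 0.947), with a median of 0.01 and no gene without overlap. The 22 paralogs of the 8 genes had 11 values below 0 and 11 above, with a median of 0.0067. Among them, SPT5-2 (-0.0027, SE 0.10) and SPT5-1 (0.07, SE 0.12) are the counterparts of SPT5L, and CLSY1 to CLSY4 those of DRD1, with -0.19 to 0.11. The SUVH family outside SUVH2 and SUVH9 ran from -0.08 for SUVH6 (SE 0.09) to 0.12 for SUVH5 (SE 0.17, limma adjusted p = 0.974), the highest paralog. GMI1, whose protein has a hinge domain like that of DMS3, had -0.02 (SE 0.09).

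The list of genes linked to control by this pathway held only 3, ROS1, SDC and FWA. ROS1, a DNA demethylase gene whose expression is known to drop in RNA-directed DNA methylation mutants, stood at 9.51, 9.68 and 9.60 in Col and 9.30, 8.92 and 9.46 in epiRIL12. All 3 epiRIL12 values were below the Col values, with a difference of -0.37 (SE 0.15, limma adjusted p = 0.706). Without epiRIL12 replicate 2 it was -0.22. Whether the level of ROS1, SDC or FWA goes with that of NRPE1 was not tested. SDC and FWA, both silenced through methylated repeats, had -0.36 (SE 0.28, limma adjusted p = 0.917) and 0.03 (SE 0.12, limma adjusted p = 0.994), and their groups overlap.

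The loci around NRPE1 had values near 0. The nearest measured locus on one side, AT2G40020, had 0.11 (SE 0.14) and the nearest on the other, AT2G40050, had 0.04 (SE 0.12). The 10 nearest loci ran from -0.34 at the clock gene ELF4 (SE 0.19) to 0.14. Over all 8 genes there were 80 such neighbours, 5 on each side; none passed the test over all loci (limma adjusted p under 0.05; 0.974% of loci did), and 8 were under an unadjusted p of 0.05 (7.04% of loci). Group ranges were separate for 14 of the 80 neighbours, 8 lower and 6 higher, against 12.1% of all loci (6.89% lower and 5.19% higher).

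**Figure D3:**
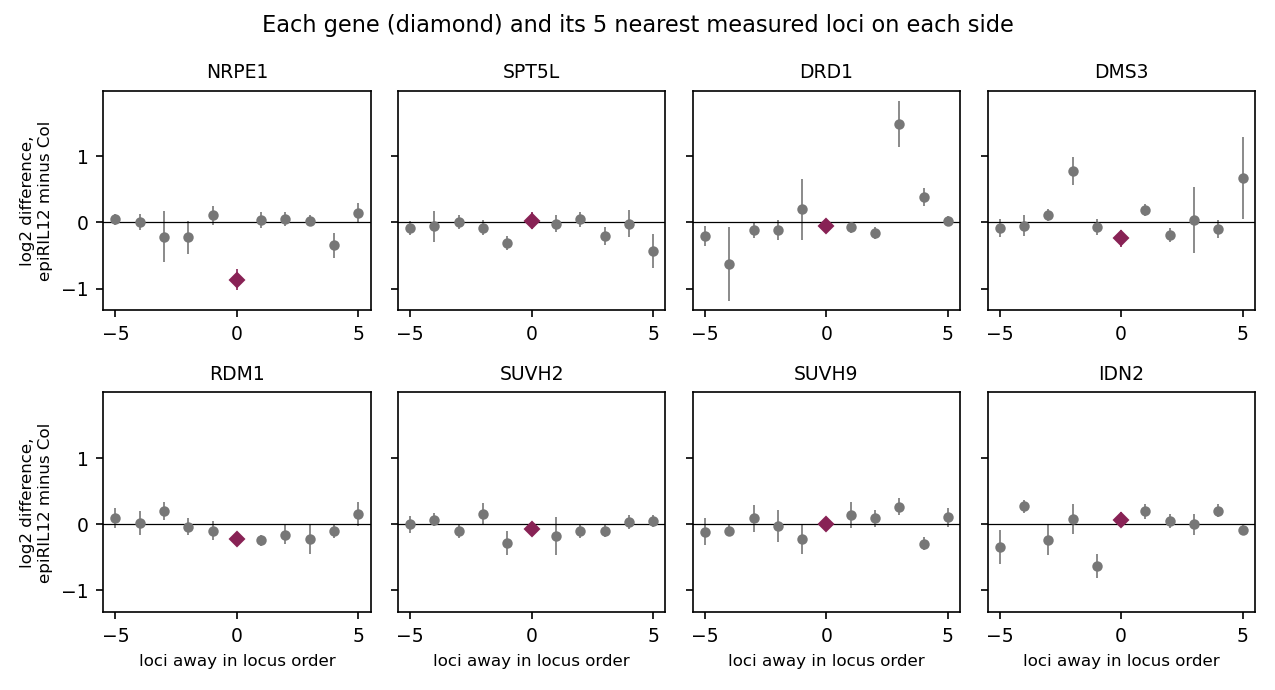
Log2 difference, epiRIL12 minus Col, of each of the 8 genes (diamond) and of the 5 nearest measured loci on each side in locus order, with the standard error as bars. NRPE1 (-0.86) lies below its 10 neighbours, and the highest neighbour is the pseudogene AT2G16410 near DRD1 (1.49).

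The pseudogene AT2G16410, the third measured locus after DRD1, had the highest value of the 80. Its mean log2 level was 4.42 in Col (SD 0.71 over 3 arrays) and 5.92 in epiRIL12 (difference 1.49, SE 0.35, limma adjusted p = 0.242). That Col mean lies below the lower quartiles of the arrays (4.71 to 4.90). The next locus, the pseudogene AT2G16420, had 0.39 (SE 0.14), while DRD1 itself had -0.05. Both pseudogenes were chosen for mention once their values had been seen. NRPE1, DRD1 and SUVH2 are on chromosome 2, DMS3, RDM1 and IDN2 on chromosome 3, SUVH9 on chromosome 4 and SPT5L on chromosome 5.

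The labelled target was double-stranded and keeps no strand, so a gene and one that overlaps it cannot be told apart where they share probes. In the RefSeq table NRPE1, SPT5L, SUVH9 and IDN2 overlap no other gene. DRD1 overlaps the homeobox gene BLH7 (-0.07, SE 0.08), DMS3 overlaps AT3G49240 (-0.07, SE 0.12) and RDM1 overlaps AT3G22670 (-0.10, SE 0.15). SUVH2 overlaps a long non-coding RNA gene that was not analysed here.

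To see which genes resembled NRPE1, each protein-coding locus was set against it after subtracting the locus's own Col mean, and the mean absolute gap over the 6 arrays was taken. The nearest of 25170 loci were XTH4 (gap 0.08), which encodes a cell wall enzyme, AT3G56390 (0.09), AT5G13830 (0.10), AT2G26370 (0.11) and AT5G02700 (0.12); the median gap over all these loci was 0.52. Each of the 5 was lower on the 3 epiRIL12 arrays than on the 3 Col arrays, by -0.99 to -0.72 in the difference of means. That follows from the choice by likeness, and none of the 5 is on the lists of pathway genes. Level was not part of the choice. XTH4 had group means of 11.54 in Col and 10.65 in epiRIL12, AT3G56390 had 4.19 and 3.20, and AT2G26370 had 4.17 and 3.45. The means of AT3G56390 and AT2G26370 lie below the lower quartiles of the arrays (4.71 to 4.90).

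**Figure D4:**
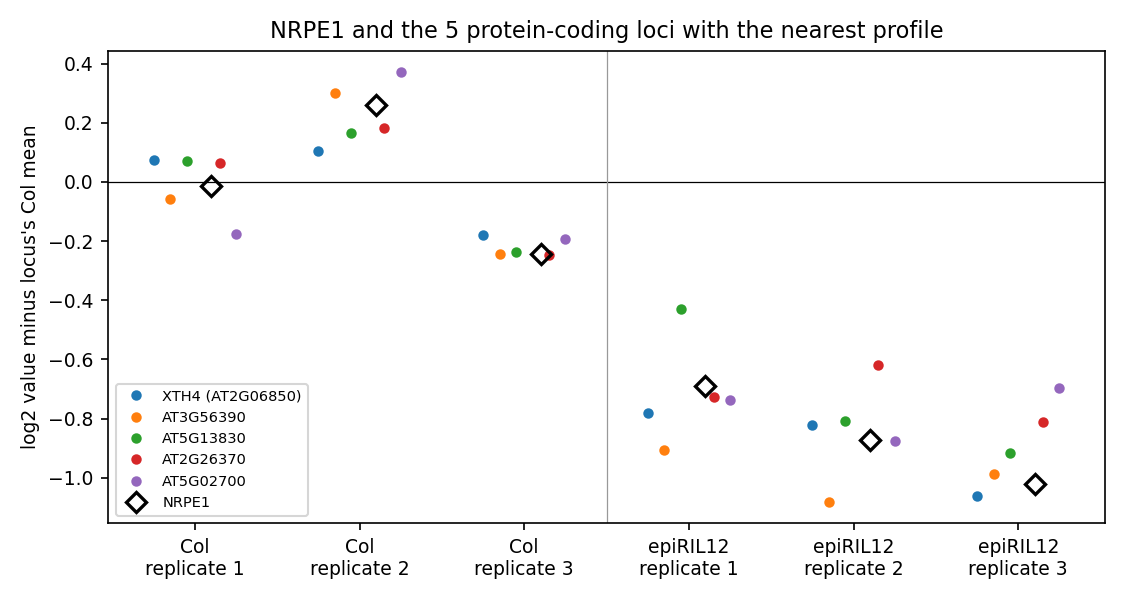
Log2 value minus the locus's own Col mean on each array, for NRPE1 (open diamonds) and the 5 protein-coding loci with the smallest mean gap to it (dots). All 6 loci lie lowest on the epiRIL12 arrays; NRPE1 is at -0.69, -0.87 and -1.02 there, and Col replicate 2 is the highest array for each.

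Markers of other tissues gave no call beside these values. The 4 markers of dividing cells, CYCB1;1, KNOLLE, AUR1 and MCM5, all had values above 0 (0.07 to 0.24), and their mean log2 level was 7.84 to 8.20 on Col arrays and 8.06 to 8.28 on epiRIL12 arrays, which overlap. The 4 stamen and pollen markers averaged 5.04 to 5.42 in Col and 5.12 to 5.20 in epiRIL12. Among these single genes, MCM5 was higher in epiRIL12 without overlap (0.20, SE 0.10). The stamen and pollen marker AT3G01270 was lower without overlap (-0.13, SE 0.10). Of all loci, 12.1% did not overlap. The part of tissue make-up in the difference at NRPE1 was not tested.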

How the data were processed

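RNA of 3 Col and 3 epiRIL12 samples was hybridised to arrays; double-stranded cDNA, randomly primed from RNA depleted of ribosomal RNA, was labelled with biotin, per the labels' protocols. The authors deposited 1 log2 value per locus and array for 29670 loci, and a table of log2 differences and unadjusted p-values; the sources used here do not give the normalization, summarization, test or genome build. The value table has no locus names, so it was joined by position to the authors' table: Pearson's r between the difference of group means and the authors' log2 difference was 0.967 across loci, and 0.166 when shifted by 1 position. Names and gene classes come from the RefSeq table of assembly TAIR10.1 (29521 loci matched), from which no coordinates are given.

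Genotypes were compared locus by locus with limma (version 3.58.1, under R version 4.3.3) by a two-sided moderated test with no filter and no pseudocount, with Benjamini-Hochberg adjustment over all loci and a call at an adjusted p under 0.05. Errors of means are SDs, errors of differences limma's moderated standard errors, and 95% intervals use the same fit. The fit was tested on simulated data. The number of arrays limits the precision. The 8 genes and the lists were chosen with earlier results of these data known. Named were the 8 genes, the lowest and highest gene of each list, counterparts of the 8, the nearest neighbours of NRPE1 and the 5 loci most like it; other genes were named after their values were seen. NRPD4 and NRPB12 were not analysed here. Figures used matplotlib 3.10.9.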

Additional observations from a re-analysis of the deposited data

How the results depend on the processing

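Under 16 alternatives NRPE1 kept its direction, with differences of -0.98 to -0.73, but this was largely fixed in advance. A block for replicate number, the filters on mean signal, the other tests and the changed threshold left its difference as it was. Leaving out arrays could not reverse the sign, since its groups do not overlap. The count of the 8 genes past the threshold was 0 except at an adjusted p under 0.10, where it was 1. This count is a description, since the set was chosen on this contrast. DMS3, RDM1 and SUVH2 stayed below 0 in all 11 alternatives for which the differences of the 8 genes were compared. DRD1 (10 of 11), SPT5L (9), IDN2 (9) and SUVH9 (6), whose values are near 0, did not always keep their sign. The 11 include the block for replicate number, which left every difference as it was and so could not change a sign. None of the 8 moved by more than the SD between replicates, though DMS3 went from -0.24 to -0.13 without epiRIL12 replicate 2. Of the 58 list genes 0 to 1 were called with 1 array left out, the 1 being NRPB9A without epiRIL12 replicate 2, and 0 in the other alternatives. The 80 neighbours gave 0 calls in each. The count over all loci, 289, was 109 with the 50% of loci of lowest mean signal left out, which also tests fewer loci, 134 with an ordinary equal-variance test per locus, 151 without both arrays numbered 3 and 138 from the authors' deposited p-values; for the last 3 the cause was not tested. With the replicate number as a block it was 210, and 0 of the 8 genes were called. Same-numbered samples had correlations of deviations of -0.04, -0.07 and 0.13 (numbers 1, 2 and 3), so not every sample correlated best with its own number. The other positive values were 0.12 for Col replicate 1 with epiRIL12 replicate 2 and 0.11 for Col replicate 2 with epiRIL12 replicate 1. A fit with samples paired in that way was not run, so a pairing other than by number was not tested. Signal over background was not given, so small differences at low levels could not be judged.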
